A study of Mus musculus with 15 samples.

Results

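Stretch-responsive genes of heart muscle encode proteins that sit at the Z-disc, the I-band or the intercalated disc, where contractile force is passed on. Fhl1, Fhl2, Csrp3, Ankrd1, Xirp1, Xirp2, Pdlim3 and Nmrk2 were chosen by name. Every probe set annotated to exactly 1 of these symbols was taken, which gave 9 probe sets of the 45101 on the array, for 7 of the 8 genes and of the 18194 gene symbols in the table. Fhl1 and Ankrd1 had 2 probe sets each, and Fhl2, Csrp3, Xirp1, Pdlim3 and Nmrk2 had 1. The signal of Xirp2 was not analysed here, and of that gene only a promoter window was read. All 9 were bright enough to enter the test.

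Total RNA of whole hearts of 15 male mice was hybridised to 1-colour Affymetrix arrays, 1 array per mouse, and every mouse was 10 weeks old per the labels. The control group had 8 mice. The other group had 7 mice heterozygous for Lmna H222P, a substitution in lamins A and C of the nuclear lamina. The labels used here give neither strain nor litter, and they give the controls no genotype beyond their name. p-values therefore measure the spread between these samples. Fewer cells of a type and less RNA per cell cannot be told apart in whole-heart RNA.

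LIM domains are zinc-binding modules through which proteins hold on to other proteins, and ankyrin repeats serve a similar purpose. Csrp3 (muscle LIM protein) is anchored at the Z-disc, Ankrd1 binds the elastic part of titin and also enters the nucleus, and Fhl1 and Fhl2 are LIM-only proteins that bind titin. Several of these genes are known to be induced in heart muscle under load, and Ankrd1 is widely used as a marker of it. Mutations of human FHL1 and LMNA both cause forms of Emery-Dreifuss muscular dystrophy, in which the heart is affected.

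Of the 9 probe sets, 1 rose in heterozygous hearts, that of Pdlim3. In limma's moderated test with Benjamini-Hochberg adjustment over all 38870 tested probe sets, 0.252% of all passed the adjusted threshold of 0.05. The bright probe set of Fhl1 and the probe set of Nmrk2 had higher means without passing, and the weak probe set of Fhl1 had a lower mean without passing. The other 5, of Fhl2, Csrp3, Ankrd1 and Xirp1, had fold changes from 0.971 to 1.03 and adjusted p-values above 0.9. At an unadjusted p under 0.05 there were 4 of 9, beside 14.6% of all tested probe sets. The median difference was 0.02 (log2) over the 9 and -0.11 over all tested probe sets.

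**Figure D1:**
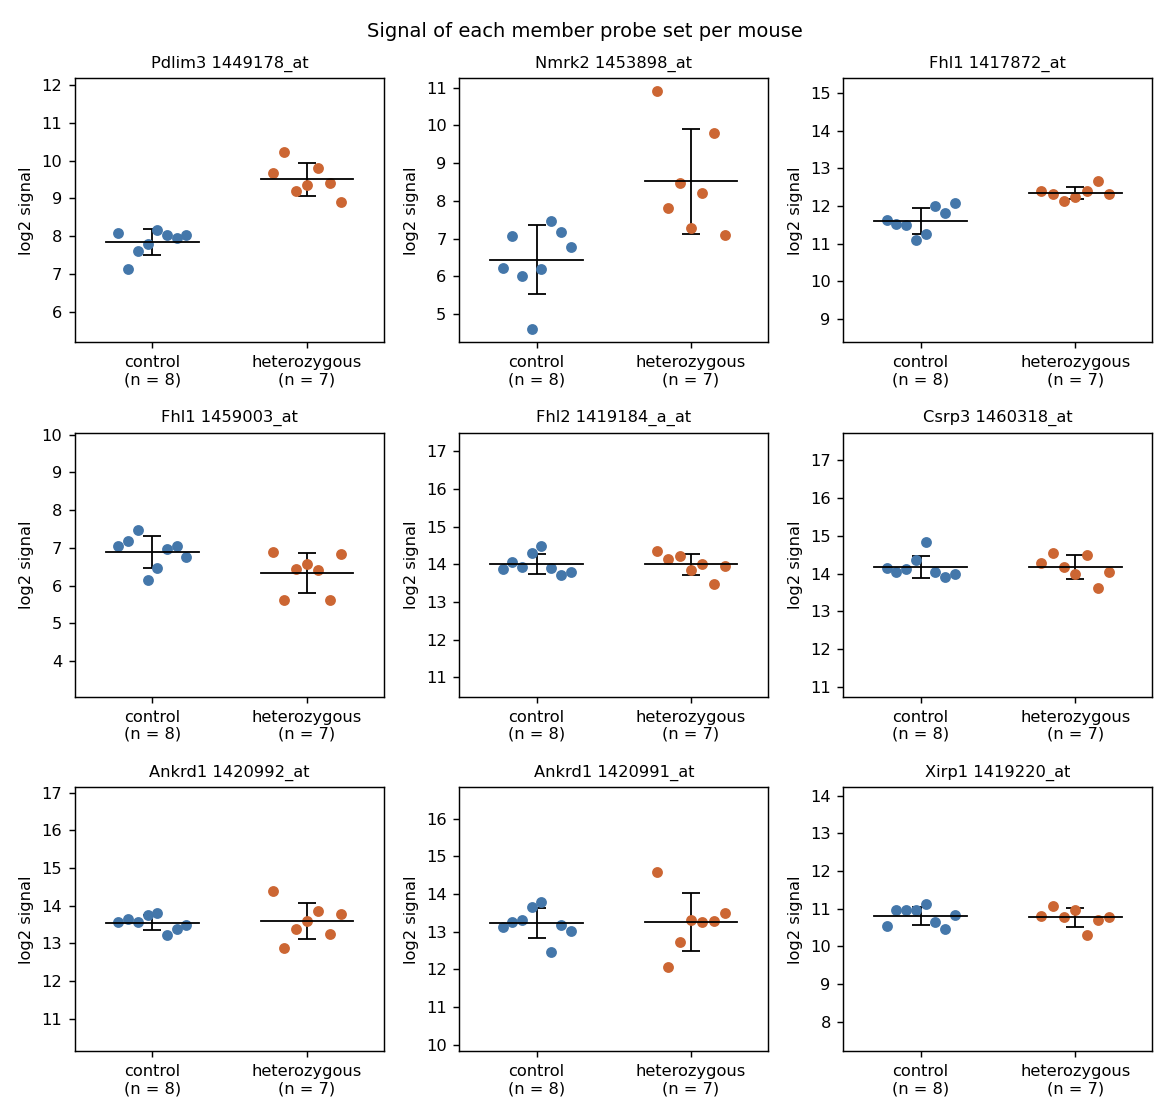
Log2 signal of the 9 probe sets, 1 point per mouse, with the mean (line) and SD (bars) of 8 control and 7 heterozygous mice; every panel spans the same number of log2 units. The heterozygous points of Pdlim3 and of Fhl1 1417872_at all lie above the control points, while those of the other 7 probe sets overlap the controls.

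Pdlim3 encodes a PDZ and LIM protein, also called ALP, that binds alpha-actinin at the Z-disc. Its signal on the 8 control arrays was 140.0, 195.7, 221.3, 245.1, 261.3, 262.2, 270.3 and 287.2 units. On the heterozygous arrays it was 477.6, 584.1, 653.1, 684.1, 812.4, 890.9 and 1201.0 units. The groups did not overlap, and the lowest heterozygous heart stood clear of the highest control. The lowest control was array 2 and the highest heterozygous heart was also array 2 of its group. Mean log2 signals were 7.85 ± 0.34 (SD, n = 8) and 9.51 ± 0.43 (SD, n = 7). The fold change was 3.16, with a 95% interval from 2.32 to 4.30 and limma's adjusted p = 0.00553. Its p-value ranked at place 6 among the 38870. The exact permutation p of this probe set alone was 0.000155, the smallest that 6435 splits allow. In the exact rank sum test its p was 0.000311, the smallest these group sizes allow. Its adjusted p was 0.0664, the smallest of any probe set and the same as that of Fhl1 1417872_at. With 0 of the 38870 passing, even full separation of the groups could not pass this test. The gene had a single probe set under the rule, so no other probe set of it was compared.

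Atrial transcripts also differed between these groups, and their values stand beside Pdlim3 here. Of 9 atrial markers 3 rose, sarcolipin (Sln) and the myosin light chains Myl7 and Myl4. Their differences were 6.37, 4.69 and 2.83 (log2, limma's adjusted p = 0.0122, 0.0255 and 0.0298), larger than that of Pdlim3. Control medians of these 3 were 6, 52.05 and 227.25 units. At an unadjusted p under 0.05 in limma's test there were 6, all higher, with Pam, Dkk3 and Nppa besides (differences of 2.10, 0.98 and 0.87). Tbx5 and Nr2f2 had differences of 0.18 and 0.18, and Bmp10 ran the other way at -0.81 (limma's adjusted p = 0.778, 0.750 and 0.548). The summed signal of all 9, to which the natriuretic peptide Nppa contributed most, ran from 6283.8 to 11114.6 units in controls and from 11108.0 to 41962.9 in heterozygous hearts. Since Nppa is also a load-responsive gene of the ventricle, the 3 markers that rose are given apart from the sum. Control array 6 had 406.7 units of Sln, 1212.9 of Myl7 and 1399.8 of Myl4, the highest of the controls, and its Pdlim3 signal of 262.2 lay within the range of the other controls. Heterozygous array 1 had 241.0, 451.9 and 706.0 units of these 3 and 812.4 of Pdlim3. Heterozygous array 7 had 245.3, 754.5 and 883.8 units and 477.6 of Pdlim3. On both heterozygous arrays the 3 markers were thus lower than on control array 6 and higher than on the other 7 controls, while Pdlim3 was higher than on any control. With group means subtracted, Pdlim3 correlated with the atrial sum at Pearson's r = 0.66 and Spearman's rho = 0.68 over 15 arrays. The permutation p was 0.0158 and 0.0103, and the first became 0.116 when adjusted over 45 relations. Without the 2 arrays farthest from the median of the atrial sum r was 0.57. The part of atrial tissue in the Pdlim3 difference was not tested.

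Fibroblast and smooth muscle markers had higher means too. Of 5 fibroblast markers 0 passed limma's adjusted test and 4 had an unadjusted p under 0.05, and of 4 smooth muscle markers 0 and 4. Their sums ran from 7180.8 to 11232.8 units in controls and from 13585.7 to 22204.1 in heterozygous hearts for fibroblast markers, and from 3941.8 to 5695.3 and from 5614.5 to 11198.3 for smooth muscle markers. Within groups, Pdlim3 correlated with these sums at r = -0.11 (rho = -0.06, permutation p = 0.714 and 0.821) and r = -0.21 (rho = -0.16, permutation p = 0.523 and 0.581), with adjusted p of 0.912 and 0.868 for r. Without the 2 farthest arrays r was 0.08 and 0.19. Dcn was the largest part of the fibroblast sum, with medians of 6976.05 units in controls and 12214.4 in heterozygous hearts. Acta2 was the largest part of the smooth muscle sum, with medians of 3668.45 and 6857.9 units. These r values therefore follow mainly Dcn and Acta2. Of 6 cardiomyocyte and 4 ventricular markers 0 passed limma's test, adjusted or at an unadjusted p under 0.05. Of 12 skeletal muscle markers 0 passed adjusted and 2 had an unadjusted p under 0.05, Tnnt3 with a difference of 1.52 and Acta1 with -0.98. Sums of the 12 ran from 5384.5 to 18243.1 units in controls and from 2995.6 to 11158.9 in heterozygous hearts. Acta1, read further on as a load-responsive transcript, made up most of them, from 4234.4 to 17594.7 and from 2453.7 to 10108 units. No other skeletal muscle marker was above 233.6 units on any array. Of 5 blood markers 2 fell, the platelet gene Ppbp by 1.97 and the red cell gene Alas2 by 1.37 on the log2 scale (limma's adjusted p = 0.00117 and 0.0255). The platelet gene Pf4 and the red cell genes Hba-a1 and Slc4a1 had differences of -0.18, -0.39 and -1.31 without passing (limma's adjusted p = 0.776, 0.801 and 0.134). The part of these other cell types in the Pdlim3 difference was not tested.

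Ratios of the 3' to the 5' control probe sets of Actb, a sign of RNA length, were above 2 on control array 6 and heterozygous arrays 2, 3 and 5. Group medians were 1.48 in controls and 1.63 in heterozygous hearts. Without these 4 arrays, a choice made after the data were seen, the Pdlim3 difference was 1.51 (log2; adjusted p = 0.0371). Without control array 6 and heterozygous arrays 1 and 2, chosen for their atrial or Myh7 signals, it was 1.51 (limma's adjusted p = 0.0252). That fit kept heterozygous array 5, which had the highest atrial sum, 41962.9 units. Heterozygous array 1, left out, had the lowest Sln, Myl7 and Myl4 signals of its group. The fit therefore does not show the Pdlim3 difference without the hearts of most atrial signal.

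**Figure D2:**
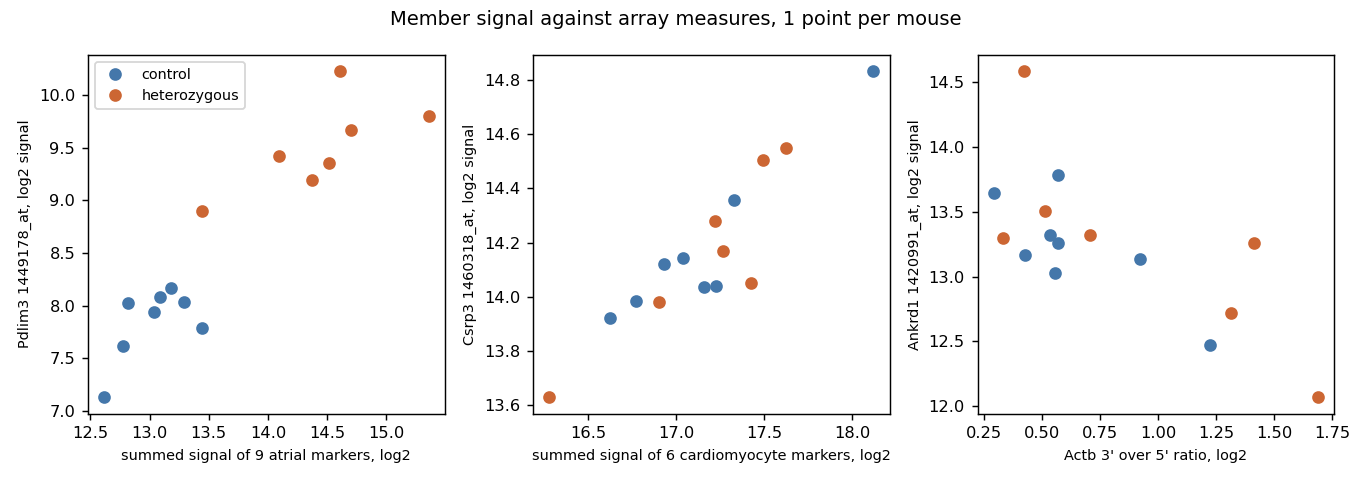
Log2 signal of Pdlim3, Csrp3 and Ankrd1 1420991_at against the log2 of the summed signal of 9 atrial markers, of 6 cardiomyocyte markers and of the Actb 3' over 5' ratio, 1 point per mouse (8 control, 7 heterozygous). In the left panel Nppa is the largest single part of the atrial sum. That sum runs from 6283.8 to 11114.6 units in controls and from 11108.0 to 41962.9 in heterozygous mice. Every heterozygous point lies above the controls in Pdlim3. Csrp3 goes with the cardiomyocyte sum, and the 3 lowest Ankrd1 points have Actb ratios above 2.

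Promoter windows of 4 members are shown because Pdlim3 separated the groups, Ankrd1 carried the same MCAT letters and did not, and Fhl2 and Csrp3 varied together between mice, as described further on. RefSeq, assembly GRCm38.p6, held windows for 7 of the 8 genes, without Xirp1. Each line holds the 250 bases before an annotated start, 5′ to 3′ on the gene's strand, with motif matches in capitals. For Fhl2 and Csrp3 the more upstream of their annotated starts is shown. The windows are chr8:45885237-45885486 (plus strand) for Pdlim3, chr19:36119845-36120094 (minus) for Ankrd1, chr1:43196762-43197011 (minus) for Fhl2 and chr7:48848052-48848301 (minus) for Csrp3.
Pdlim3: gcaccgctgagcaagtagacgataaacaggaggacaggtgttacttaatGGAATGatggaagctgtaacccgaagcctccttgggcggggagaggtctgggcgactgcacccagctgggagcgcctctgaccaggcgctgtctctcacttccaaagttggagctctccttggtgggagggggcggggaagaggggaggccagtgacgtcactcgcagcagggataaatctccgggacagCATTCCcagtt
Ankrd1: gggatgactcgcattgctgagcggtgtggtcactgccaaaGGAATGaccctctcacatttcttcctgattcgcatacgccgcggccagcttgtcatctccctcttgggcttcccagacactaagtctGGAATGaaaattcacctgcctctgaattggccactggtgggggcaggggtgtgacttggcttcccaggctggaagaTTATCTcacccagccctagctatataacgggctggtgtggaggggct
Fhl2: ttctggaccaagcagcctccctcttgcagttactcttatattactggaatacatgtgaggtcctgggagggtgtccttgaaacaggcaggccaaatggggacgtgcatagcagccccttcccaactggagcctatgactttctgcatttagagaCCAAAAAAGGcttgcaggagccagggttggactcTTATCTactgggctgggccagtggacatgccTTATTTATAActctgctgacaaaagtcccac
Csrp3: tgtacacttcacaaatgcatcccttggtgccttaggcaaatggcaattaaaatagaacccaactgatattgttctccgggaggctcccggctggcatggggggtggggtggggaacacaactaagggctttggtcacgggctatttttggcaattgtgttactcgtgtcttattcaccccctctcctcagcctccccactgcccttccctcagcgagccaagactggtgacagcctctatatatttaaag

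The MCAT motif, bound by TEAD factors, was searched on either strand as the letters CATTCC. The motif of GATA factors was searched likewise as AGATAA, and the MEF2 box and the CArG box of SRF were searched too. Pdlim3 held MCAT 201 to 196 bases before the start on the other strand and 11 to 6 bases before it on the printed strand. Ankrd1 held MCAT at 210 to 205 and at 123 to 118 bases, and the GATA letters at 47 to 42 bases, all on the other strand. Fhl2 held a CArG box at 96 to 87 bases, the GATA letters on the other strand at 62 to 57 and a MEF2 box at 31 to 22. None of these matches overlapped another, and no match was found in the Csrp3 window. Of the 10 member windows, 2 held MCAT, 2 the GATA letters, 2 a MEF2 box and 3 a CArG box. Each motif was found in 2 of the 7 genes, since the CArG boxes lay in Fhl1 and at either start of Fhl2. Among all 32851 windows of this length the shares were 12.6%, 9.99%, 2.92% and 1.47%. A match describes the letters only.

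Fhl1 encodes a LIM-only protein of the sarcomere that is abundant in striated muscle. Its bright probe set, 1417872_at, had control signals of 2202.6, 2429.5, 2908.3, 2952.6, 3147.0, 3572.1, 4135.6 and 4321.8 units. Heterozygous signals were 4487.7, 4851.1, 5090.3, 5121.4, 5355.6, 5383.5 and 6478.6 units. All 7 heterozygous hearts were above all 8 controls, although the gap between the nearest mice was narrow. Groups were fully separated in 2 of the 9 probe sets, this one and Pdlim3, beside 0.468% of all tested probe sets. The difference was 0.74 ± 0.16 (log2, SE) with limma's adjusted p = 0.0780, so it did not pass. The weak probe set 1459003_at had a median of 129 units in controls (70.7 to 179.4) and 86.8 in heterozygous hearts (48.9 to 117.8). Its difference of -0.55 ± 0.25 (SE; adjusted p = 0.322) ran the other way, and with the mean of the pair of probe sets in place of the bright one the Fhl1 difference was 0.09 (adjusted p = 0.832). The call on the bright probe set changed with the settings: it passed with a log2 filter at 6 (adjusted p = 0.0366), with a floor at a log2 of 6 (adjusted p = 0.0235) and with a trended, robust prior (adjusted p = 0.0118). It did not pass when any single array was left out, with adjusted p from 0.0588 to 0.145.

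Nmrk2 encodes a muscle kinase that turns nicotinamide riboside into the NAD precursor nicotinamide mononucleotide. Control signals were 24.1, 64.7, 73.3, 75.0, 110.4, 133.3, 145.4 and 176.3 units. Heterozygous signals were 136.6, 155.7, 225.9, 296.4, 358.0, 893.5 and 1911.3 units. Heterozygous arrays 1 and 6 were the high ones, 5 of 7 lay above all controls, and arrays 4 and 7 lay within the control range. The mean difference was the largest of the 9, at 2.07 ± 0.56 (log2, SE), or 4.21-fold with a 95% interval from 1.84 to 9.63. The spread was also the widest, with SDs of 0.91 in controls and 1.38 in heterozygous hearts, and limma's adjusted p was 0.138. Without heterozygous array 1 the difference was 1.68 (adjusted p = 0.189). It passed in none of the fits that left out 1 array, with adjusted p from 0.0888 to 0.215.

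**Figure D3:**
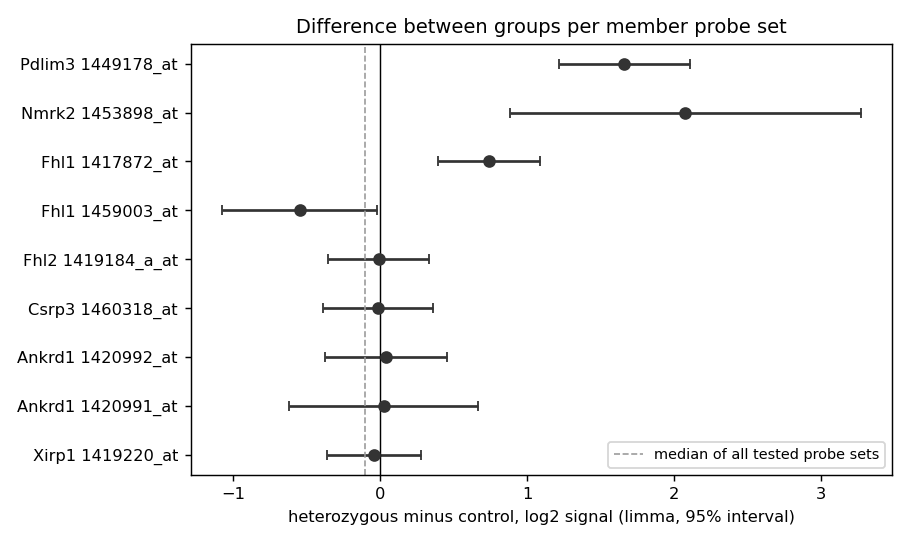
Heterozygous minus control difference of each of the 9 probe sets in log2 signal, as points with limma's 95% interval for 8 against 7 mice; the dashed line is the median of all tested probe sets, -0.11. Pdlim3 at 1.66 has a narrower interval than Nmrk2 at 2.07, and 5 probe sets lie within 0.05 of 0.

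Ankrd1 encodes the cardiac ankyrin repeat protein of the titin spring. Its brighter probe set, 1420992_at, had control signals from 9646.5 to 14424.3 units with a median of 12058. Heterozygous signals were 7567.0, 9789.4, 10697.4, 12374.5, 14054.0, 14798.5 and 21481.7 units. Heterozygous mice lay on either side of the controls, with array 1 highest and array 2 lowest. The other probe set, 1420991_at, repeated this order at the ends, with 24552.5 units on heterozygous array 1 and 4298.2 on array 2. Its heterozygous range was 5.71-fold, beside 2.48-fold in controls. The differences between groups were 0.04 ± 0.20 and 0.02 ± 0.30 (log2, SE; adjusted p = 0.950 and 0.980). The 95% intervals, as folds, were 0.769 to 1.37 and 0.651 to 1.59.

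The pair of Ankrd1 probe sets was also set against the Actb 3' over 5' ratio. With group means subtracted, 1420991_at had r = -0.77 and rho = -0.70 with the log2 ratio over 15 arrays (permutation p = 0.00128 and 0.00605; adjusted p = 0.0192 for r). Without the 2 arrays farthest from the median of that ratio r was -0.56 with a permutation p of 0.113. For 1420992_at r was -0.51 and rho -0.26 (permutation p = 0.133 and 0.403; adjusted p = 0.461 for r), and r was -0.15 without the 2 arrays. The signal of 1420992_at over that of 1420991_at was between 0.875 and 1.76 on the 15 arrays, highest on heterozygous array 2 and control array 6, whose Actb ratios were 3.23 and 2.34. 1420991_at also went with the sum of 5 fibroblast markers, at r = 0.71 and rho = 0.65 (permutation p = 0.00362 and 0.00764; adjusted p = 0.0407 for r), and r was 0.76 without the 2 farthest arrays (adjusted p = 0.270). For 1420992_at the values were r = 0.62 and rho = 0.62 (permutation p = 0.00812 and 0.00668; adjusted p = 0.0731 for r), and r = 0.72 without the 2 arrays. Dcn was the largest part of that fibroblast sum. RNA quality and fibroblast content were not tested as parts of the Ankrd1 values.

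Fhl2 encodes a LIM-only protein enriched in heart that binds titin and transcription factors. Its control signals ran from 13526.1 to 22961.9 units with a median of 15466, and its heterozygous signals from 11410.0 to 20749.1 with a median of 16413.0. The groups overlapped almost fully, and the difference was -0.01 ± 0.16 (log2, SE; adjusted p = 0.983), a fold between 0.782 and 1.26 at 95%. Csrp3, whose loss in mice is known to cause dilated cardiomyopathy, ran from 15498.2 to 29215.1 units in controls and from 12654.9 to 23987.9 in heterozygous hearts. Control array 5 was highest for either gene among controls, and heterozygous array 6 was lowest. The Csrp3 difference was -0.01 ± 0.18 (SE; adjusted p = 0.981), with a fold between 0.765 and 1.28. Xirp1, an actin-binding Xin repeat protein of the intercalated disc, ran from 1417.3 to 2247.4 units in controls and from 1261.3 to 2171.4 in heterozygous hearts. Its difference was -0.04 ± 0.15 (SE; adjusted p = 0.923), with a fold between 0.776 and 1.21.

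Whether members varied together from mouse to mouse was examined within genotype, with each group's mean subtracted and 1 probe set, the brightest, per gene. Of 21 pairs of genes, 2 passed a permutation test of Pearson's r with 100000 permutations within groups and Benjamini-Hochberg adjustment. Fhl2 and Csrp3 went together, at r = 0.84 and rho = 0.87 (permutation p = 0.00057 and 0.00017; adjusted p = 0.0120 and 0.00357). Without the 2 arrays farthest from the Fhl2 median r was 0.65 (adjusted p = 0.169) and did not pass. Fhl1 and Fhl2 ran in opposite directions, at r = -0.72 and rho = -0.64 (permutation p = 0.00189 and 0.0150; adjusted p = 0.0198 and 0.105). Without the 2 arrays farthest from the Fhl1 median r was -0.69 (adjusted p = 0.129). The opposite course of Fhl1 and Fhl2 depended on the scaling, since r was -0.28 (adjusted p = 0.644) once each array was centred on its median, while that of Fhl2 and Csrp3 was then 0.83 (adjusted p = 0.00231). All members on an array share its scaling and its RNA.

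Fhl1 and Nmrk2, the members that with Pdlim3 had the largest differences between groups, had r = 0.58 and rho = 0.63 within genotype (permutation p = 0.00804 and 0.0116; adjusted p = 0.0563 and 0.105), and r = 0.50 without the 2 farthest arrays. None of the 6 pairs with Pdlim3 passed. With Fhl1 its r was 0.18 and rho 0.25 (permutation p = 0.520 and 0.370; adjusted p = 0.728 for r), r being 0.13 without 2 arrays. With Nmrk2 the values were r = 0.12 and rho = 0.05 (permutation p = 0.704 and 0.871; adjusted p = 0.744 for r), r being 0.05 without 2 arrays.

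Fhl2 and Csrp3 also followed the summed signal of 6 cardiomyocyte markers (Myh6, Tnnt2, Tnni3, Actc1, Ryr2 and Pln). For Csrp3 r was 0.92 and rho 0.88 (permutation p = 3e-05 and 0.00012; adjusted p = 0.00135 for r), and r was 0.79 without the 2 arrays farthest from the median (adjusted p = 0.0990). For Fhl2 r was 0.86 and rho 0.84 (permutation p = 0.00031 and 0.00038; adjusted p = 0.00697 for r), and r was 0.68 without them (adjusted p = 0.270), so neither relation passed without those arrays. These 45 relations to array measures were chosen after the data were seen.

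**Figure D4:**
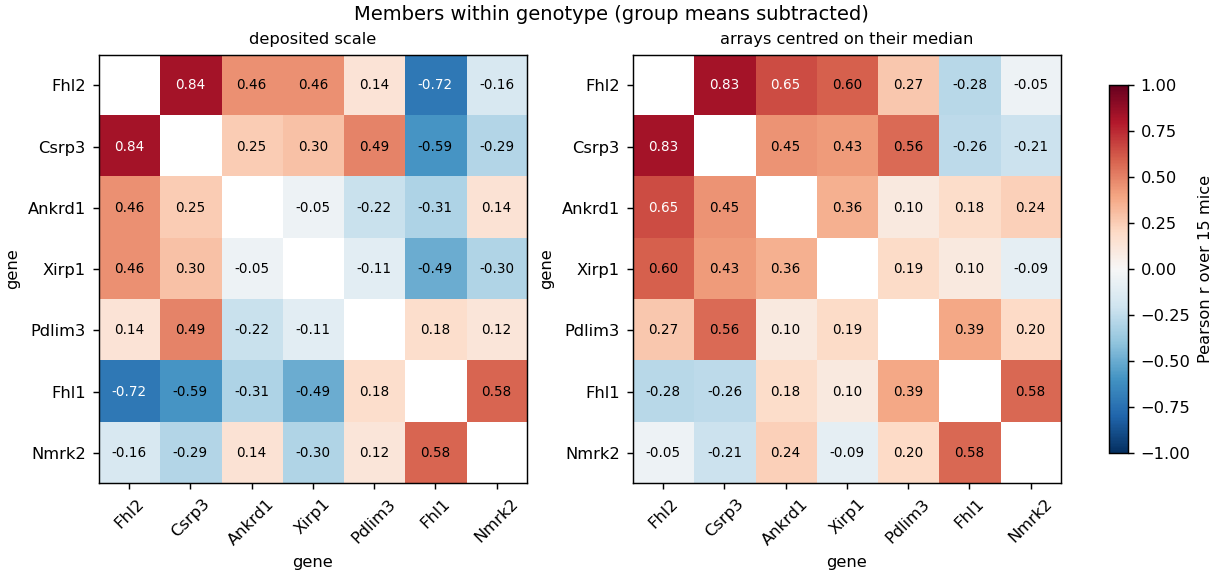
Pearson's r between members over 15 mice after subtracting group means, on the deposited scale (left) and with each array centred on its median (right); colour runs from -1 to 1. Fhl2 and Csrp3 stay at 0.84 and 0.83, while Fhl1 and Fhl2 go from -0.72 to -0.28.

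For the 6 members with a mean log2 signal of at least 8, the 2 genes of most similar course within genotype were looked up among 6630 genes of that brightness. They were picked as the highest of many, so the values have no p and describe these 15 arrays. Pdlim3 was closest to the helicase gene Dhx30 (r = 0.87, rho = 0.85) and to Tango2 (r = 0.87, rho = 0.82). Fhl1 was closest to Ipo4 (r = 0.89, rho = 0.87) and Zranb2 (r = 0.84, rho = 0.775). Fhl2 was closest to the lactate dehydrogenase gene Ldha (r = 0.97, rho = 0.96) and the Z-disc gene Myoz2 (r = 0.92, rho = 0.91). Csrp3 was closest to Cox4i1 (r = 0.96, rho = 0.89) and Cox8b (r = 0.95, rho = 0.91), which encode subunits of cytochrome c oxidase. Ankrd1 was closest to Cd74 (r = 0.92, rho = 0.90), the invariant chain of antigen presentation, and Apbb2 (r = 0.86, rho = 0.73). Xirp1 was closest to the ribosomal gene Rplp0 (r = 0.89, rho = 0.89) and Ppp1r37 (r = 0.88, rho = 0.85). Without the 2 arrays farthest from the member's median these r values were between 0.652 and 0.964. None of the 12 genes passed the comparison of the groups.

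Relatives and partners of the members were read from 6 lists of 67 genes, of which 63 had a tested probe set. Limma passed 0 of the 63, beside 0.289% of all genes, each by its brightest probe set. At an unadjusted p under 0.05 there were 7, 5 higher and 2 lower, beside 15.2% of all genes. The adjusted rank sum test passed 0, but even full separation of the groups could not pass it. The median difference over the 63 was 0.04 (log2), beside -0.08 over all genes.

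Among 8 tested genes on the list of LIM-only relatives, which also holds the partners Ilk and Parva, 2 were higher at an unadjusted p under 0.05. Csrp2, a LIM protein of smooth muscle related to Csrp3, had geometric mean signals of 378 and 681 units, a difference of 0.85 (adjusted p = 0.0699). In 6 of 7 heterozygous hearts it lay above the highest control, 513.1 units, and in array 7 it was 430.4. It passed without that array, with a log2 filter at 6, with a floor at 6, after centring on the median and with a trended, robust prior. Csrp1 stood at 472 and 642 units (adjusted p = 0.271), and its other probe set at a difference of -0.17. Smooth muscle marker sums were 3941.8 to 5695.3 units in controls and 5614.5 to 11198.3 in heterozygous hearts. On array 7 the sum was 7695.5, the group median, of which Acta2 made up 6998.9. Myh11, Tagln and Cnn1 were on that array at the lowest of their group, at 253.7, 408.5 and 34.4 units. The part of smooth muscle in the Csrp2 value was not tested. Of 8 PDZ-LIM genes, the family of Pdlim3, 0 passed by either measure, with differences from -0.34 for Pdlim7 to 0.31 for the kinase gene Limk1, whose other tested probe set had -0.99. Pdlim5 stood at 0.22 and Ldb3, the PDZ-LIM protein of the cardiac Z-disc also called Cypher, at 0.15 (adjusted p = 0.499 and 0.628). The 7 tested probe sets of Pdlim5 ran from -0.50 to 0.54, and the 3 of Ldb3 from -0.12 to 0.20.

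Of 8 tested genes on the list around titin and ankyrin repeats, the protease gene Capn3 had 254.0 and 162.7 units. Its difference was -0.64 (limma's adjusted p = 0.130), and its other tested probe set had a difference of 0.19. The Ankrd1 relatives Ankrd2 and Ankrd23 had differences of -0.76 and -0.30 (adjusted p = 0.612 and 0.554), and Ankrd2 was weak on all arrays, at most 105.9 units. Titin itself (Ttn) had a difference of -0.00 by its brightest probe set (limma's adjusted p = 0.997), while its 6 tested probe sets ran from -0.84 to 0.31. Among 12 Z-disc anchors, Enah, an actin regulator of the intercalated disc, stood 0.64 higher (adjusted p = 0.160) and Synpo2 0.35 higher (adjusted p = 0.320). The 6 tested probe sets of Enah ran from 0.32 to 1.25 and none passed, while the other tested probe sets of Synpo2 reached down to -0.04.

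Nmrk2 has a place in NAD synthesis, and 0 of 13 related genes passed. Nmnat1 and Nmnat3, which complete NAD in the nucleus and in mitochondria, had differences of 0.59 and -0.64 (adjusted p = 0.157 and 0.252). Their other tested probe sets had 0.11 and -0.89. Nmrk1, the widely expressed relative of Nmrk2, had -0.26 and Nampt, the enzyme of the main salvage route, -0.27 (adjusted p = 0.555 and 0.599), while the highest of the 3 tested probe sets of Nampt had 0.35. Of 14 transcription factors of stretch genes, 0 had an unadjusted p under 0.05, and the smallest p was that of Yap1, at 0.39 (adjusted p = 0.366), with its other tested probe set at -0.23.

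**Figure D5:**
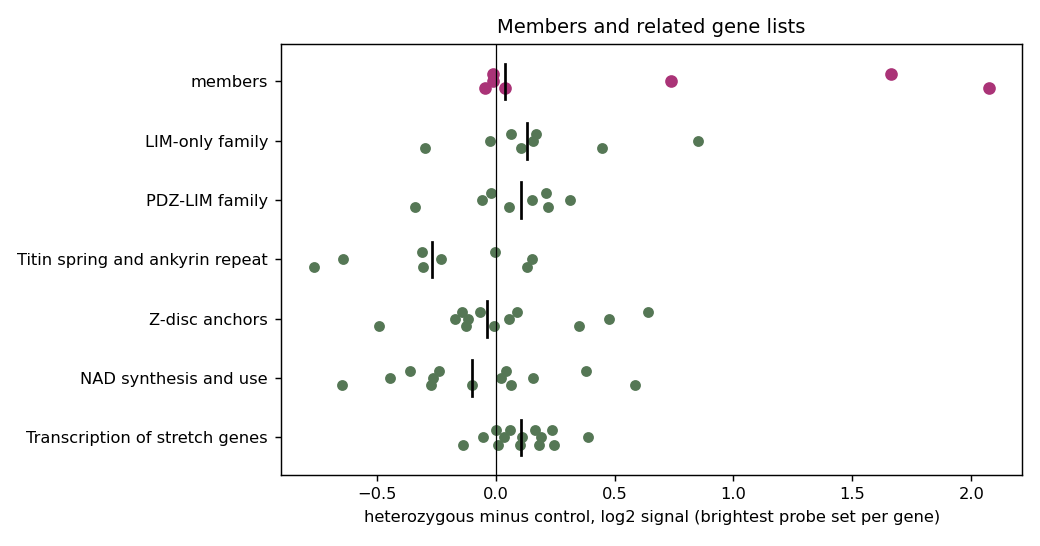
Heterozygous minus control difference in log2 signal, 1 point per gene by its brightest probe set, for the 7 members (top row) and 6 related lists; black ticks mark medians. Pdlim3, Nmrk2 and Fhl1 are the members to the right at 1.66, 2.07 and 0.74, and no point of the related lists passed the test.

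Load-responsive transcripts outside the members were read beside them. Nppa, made by the atria and by the loaded ventricle, had a difference of 0.87 (adjusted p = 0.251), with 4 of 7 heterozygous hearts above all controls. Nppb, the ventricular natriuretic peptide, had a difference of -0.49 (adjusted p = 0.413), with 17174 units on heterozygous array 1 and 4160.1 on array 7. Myh7 and the skeletal actin Acta1 had differences of 1.85 and -0.98 (adjusted p = 0.138 and 0.248). Heterozygous array 1 held the highest signal of its group for Nppb, Myh7, Ankrd1, Nmrk2 and Fhl2, and its Pdlim3 signal of 812.4 units was the third highest of the 7. Array medians ran from 56.7 to 94.2 units.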

How the data were processed

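Per the labels' protocols, RNA was extracted with an RNeasy kit and labelled with biotin. The deposited values are intensities, 1 linear signal per probe set and array. The submitters' processing notes name GCRMA without a version, but each array's mean after trimming 2% at each end was 250, as in scaling to a common target, so how probes were summarised is unknown. Such scaling leaves array medians free to differ. Gene symbols are those GEO's platform lists: 34958 probe sets had 1 symbol, 932 several and 9211 none.

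Signals were log2-transformed without a pseudocount. Probe sets above a log2 of 4 on at least 7 arrays were tested, without 64 control probe sets. Heterozygous hearts were set against controls by a two-sided moderated test (limma 3.58.1, R 4.3.3). Correlations used two-sided permutations in numpy 2.4.6. Figures used matplotlib 3.10.9. The test was checked on simulated data. Alternatives changed the filter, floor, scaling, array weights, prior, test, replicate block and arrays left out. The members and lists were chosen with earlier results of these data known. Named were all members, up to 3 genes of smallest p per list, others asked about by their role after values were seen, and the genes most similar to a member. Motifs were searched in the 250 bases before a start, without the bases after it that had been planned. Protein sequences were not used here.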

Additional observations from a re-analysis of the deposited data

Results flagged for a closer look

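In the 27 probe sets of members and list genes examined for an array far from the rest of its group, 3 of 54 groups held one, and chance alone flags about 1 in 20. None was in a member. Csrp2 on heterozygous array 7 measured 430.4 units, beside 666.9 to 798.9 on the other 6. Sirt3, a mitochondrial deacylase, measured 576.8 units on the same array, beside 1064 to 1497. Enah on control array 1 measured 3512.3 units, beside 1478.6 to 1893.4 on the other 7.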

How the results depend on the processing

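Pdlim3 passed in all 15 fits that left out 1 array, with differences from 1.54 to 1.76 (log2), and in 9 of 11 other settings. It did not pass in the rank sum test (adjusted p = 0.0664), where even full separation could not pass. With the replicate number as a block it did not pass either (1.69, limma's adjusted p = 0.134). The number of member probe sets that passed, 1, became 2 with a log2 filter at 6, a floor at 6 or a trended and robust prior, and 0 in the rank sum test and with the block. Same-numbered mice correlated between -0.06 and 0.06 in their deviations. The labels name no pairing by these numbers, and such correlations cannot exclude one. Related genes that passed, 0, became 1 with the filter at 6, the floor, centring and the trended prior, and ranged from 0 to 1 when single arrays were left out.

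Over all probe sets 98 passed, 35 higher and 63 lower. This became 192 with the filter at 6, 287 with the floor and 312 with the trended prior. The number was 0 in the rank sum test (4953 at an unadjusted p under 0.05) and 1 with the block. Without the 3 arrays control 6, heterozygous 1 and heterozygous 2 the number was 44. It ranged from 17 to 150 when single arrays were left out. Centring gave 65 (51 higher) and quantile normalization 65 (37 higher), with median differences of 0.10 and -0.02.

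Differences near 0 changed sign. Centring gave 0.19 for Fhl2, 0.19 for Csrp3 and 0.16 for Xirp1. Ankrd1 1420992_at stood at -0.0094 with quantile normalization and -0.026 without the 3 arrays, and 1420991_at at -0.0047 with the block and -0.12 without the 3 arrays. Leaving out single arrays gave -0.068 to 0.075 for Fhl2, -0.077 to 0.081 for Csrp3, -0.10 to 0.16 and -0.20 to 0.22 for Ankrd1 1420992_at and 1420991_at, and -0.095 to 0.036 for Xirp1. Member pairs that passed, 2, became 1 with Spearman's rho, 1 with centring and 0 without the 2 farthest arrays. The cause was not tested for any of these. The number of arrays limits the precision, and weak probe sets vary most.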
